A study of Drosophila melanogaster with 12 samples.

Results

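The rhodopsin genes of Drosophila melanogaster were followed through whole-fly RNA of flies under chronic circadian misalignment (CCM) and of control flies. All 7 opsin genes of the fly were taken, ninaE (which encodes the opsin Rh1), Rh3, Rh4, Rh5 and Rh6 by their FlyBase identifiers and Rh2 and Rh7 by symbol. They are 7 of 14413 counted features, each had a feature of its own, and all 7 passed the filter on low counts in every comparison. Flies of the iso31 strain, an isogenic laboratory strain, were housed on sucrose-agar food in locomotor activity monitors. The 4 groups were flies after 3 weeks of CCM, flies after 3 weeks of the control schedule, flies after 2 weeks of CCM and flies after 2 weeks of the control schedule. CCM was a cycle of 14 h of light and 14 h of dark, which makes a day of 28 h, and the control schedule gave 12 h of light and 12 h of dark. Each group had 3 samples, labelled A to C, each a pool of 10 male and 10 female flies whose RNA was taken in the hours after lights-on. Males and females therefore cannot be told apart, and week 3 flies differ from week 2 flies both in age and in the length of exposure. In the paper's lifespan experiments fewer CCM than control flies survived through week 3. The groups may therefore also differ in how far they were drawn from survivors, which was not tested. The label "whole fly" gives no eye dissection, so every value is a share of the RNA of the entire body. In such bulk samples, fewer cells of a type and less RNA per cell cannot be told apart.

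Opsins are the light receptors of photoreceptor cells. Light changes the shape of the retinal-type chromophore bound to the protein, and the activated opsin starts a cascade through a Gq protein and phospholipase C that opens TRP and TRPL channels. In each unit of the compound eye the outer photoreceptors, R1 to R6, make Rh1, the opsin encoded by ninaE. The inner photoreceptors come in a pale pairing, with the ultraviolet opsin Rh3 in R7 above the blue opsin Rh5 in R8, and in a yellow pairing, with the ultraviolet opsin Rh4 in R7 above the green opsin Rh6 in R8. Rh2 is the opsin of the ocelli, the simple eyes on top of the head. Rh7 has been described in the brain, where it has been linked to light input to clock neurons.

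Positions are those of the dm6 genome. ninaE (FBgn0002940) lies on chromosome arm 3R from 19886255 to 19888206 on the minus strand, with 5 exons and 1588 exonic bases. Rh2 (FBgn0003248) lies on 3R from 18899423 to 18901019 on the plus strand, Rh3 (FBgn0003249) on 3R from 20081060 to 20082450 on the minus strand as a single exon, and Rh6 (FBgn0019940) on 3R from 15483158 to 15484699 on the plus strand. Rh5 (FBgn0014019) lies on 2L from 12008153 to 12009832 on the plus strand and is the only opsin here with 2 annotated transcripts. Rh4 (FBgn0003250) lies on 3L from 16852527 to 16862517 on the minus strand, and its span holds 3 genes of the other strand, CG13029, sina and sinah, none of which overlaps its exons. Rh7 (FBgn0036260) lies on 3L from 12164205 to 12175482 on the minus strand. The 6 opsins other than Rh7 have short exonic sequences of 1349 to 1588 bases, whereas that of Rh7 has 4014 bases.

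The libraries held 17842804 to 23687266 counts, so that 3 counts correspond to at most 0.168 counts per 1000000 (CPM), and this floor reflects the error of counting alone. The opsins together took 0.0962 to 0.369% of all counts. Photoreceptor transcripts were present in every library. Of 20 genes listed for the phototransduction cascade 19 were counted as single features, and none of these was at 0 in any sample. Their summed level was 1881, 2881 and 1416 CPM in the CCM samples A, B and C of week 3, and 2011, 2212 and 1908 CPM in the control samples of week 3. At week 2 it was 3286, 2581 and 4125 CPM in CCM samples, and 3426, 3245 and 3239 CPM in control samples. In its opsin and cascade levels CCM sample B of week 3 stood apart from the other samples of its group. Opsins made up 0.276% of its counts, against 0.156 and 0.0962% in CCM samples A and C of week 3, and its cascade sum was the highest of all 6 week 3 samples. Tests, ratios, list counts and correlations that include this sample are given below with and without it, a choice made after its values were seen. CCM sample C of week 3 had the lowest opsin share of all 12 samples, and some opsin tests are also given without it.

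ninaE was the most abundant opsin throughout. Per kilobase of exonic length, the scale on which opsins can be compared with each other, its mean level over 12 samples was 1231 ± 413 CPM (SD), that of Rh3 130.5 ± 40.8, Rh4 63.8 ± 33.0, Rh6 38.7 ± 9.31, Rh2 32.3 ± 11.4, Rh5 24.0 ± 7.10 and Rh7 0.593 ± 0.183. ninaE exceeded Rh3 and Rh3 exceeded Rh4 in 12 of 12 samples, and Rh5 exceeded Rh7 in 12 of 12. The middle of this order did not hold in every sample. Rh4 exceeded Rh6 in 10 of 12 samples and Rh6 exceeded Rh2 in 9 of 12. Rh2 exceeded Rh5 in 7 of 12 samples, including 3 of 3 control samples of week 3 and 0 of 3 control samples of week 2. ninaE made up 78.9 to 81.4% of the summed opsin level per kilobase in CCM samples of week 3, 74.6 to 78.0% in control samples of week 3, 82.9 to 83.8% in CCM samples of week 2 and 81.6 to 82.6% in control samples of week 2. Rh7 was the rarest, with 27 to 72 counts a library, well above the floor but far below the 294 or more counts of every other opsin.

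**Figure D1:**
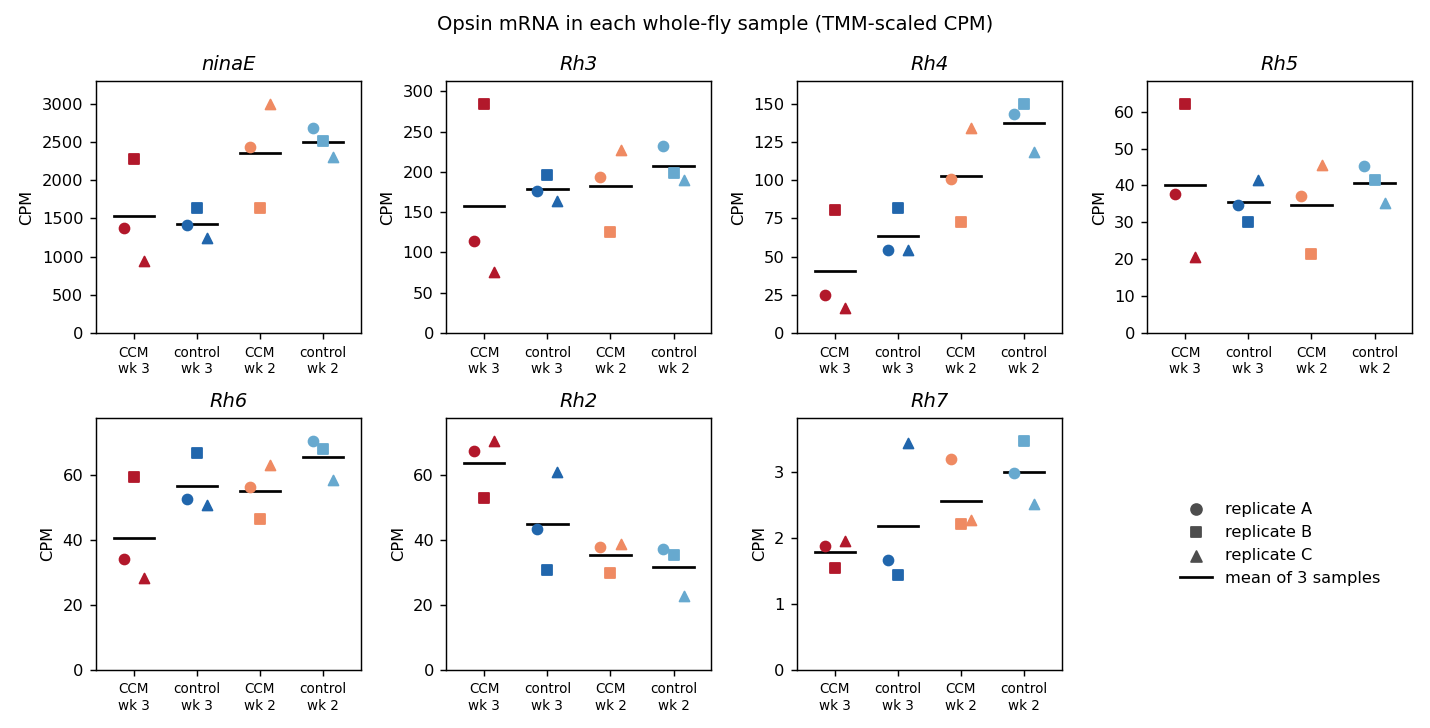
CPM (TMM-scaled, vertical axes from 0) of each opsin in each of the 12 samples, with CCM and control flies of week 3 at the left and of week 2 at the right of each panel. Symbols mark the replicate letter and bars the mean of 3 samples. ninaE and Rh4 lie lower in week 3 than in week 2 samples of control flies, Rh2 lies higher in week 3 than in week 2 samples of CCM flies, and CCM sample B of week 3 is the highest of its group for 5 of the 7 opsins.

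The first question was how opsin mRNA differed between weeks under the control schedule. Rh4 and ninaE fell, while Rh3, Rh5, Rh6, Rh2 and Rh7 did not pass the test. Rh4 stood at 54.7, 81.6 and 54.4 CPM in control samples A, B and C of week 3, against 143.4, 150.0 and 118.2 CPM in control samples of week 2. The highest week 3 value was below the lowest week 2 value. The mean was 63.6 ± 15.6 CPM at week 3 and 137.2 ± 16.7 CPM at week 2 (SD, n = 3 each), a log2 fold change of -1.11 (standard error 0.22, adjusted p = 0.027, edgeR quasi-likelihood test with Benjamini-Hochberg adjustment over all features). ninaE stood at 1409, 1639 and 1247 CPM in control samples of week 3, against 2679, 2510 and 2301 CPM in control samples of week 2, again without overlap. Its mean was 1432 ± 197 CPM at week 3 and 2497 ± 189 CPM at week 2 (SD, n = 3 each), and its log2 fold change was -0.80 (standard error 0.13, adjusted p = 0.027). Both calls held with each sample left out in turn, with adjusted p up to 0.088.

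The inner-photoreceptor opsins other than Rh4 had smaller log2 fold changes between weeks in control flies. Rh3 had 175.9, 195.6 and 164.5 CPM at week 3 and 232.1, 199.2 and 190.4 CPM at week 2 (log2 fold change -0.22, adjusted p = 0.24, edgeR). Rh5 had 34.6, 30.2 and 41.6 CPM at week 3 and 45.4, 41.4 and 35.2 CPM at week 2 (-0.20, adjusted p = 0.39). Rh6 had 52.5, 66.6 and 50.8 CPM at week 3 and 70.5, 67.8 and 58.3 CPM at week 2 (-0.21, adjusted p = 0.32). For each of these 3 opsins the groups overlapped. Rh2, the opsin of the ocelli, had 43.4, 30.9 and 61.1 CPM at week 3 and 37.2, 35.6 and 22.7 CPM at week 2 (0.50, adjusted p = 0.21). Rh7 had 1.66, 1.43 and 3.43 CPM at week 3 and 2.99, 3.47 and 2.52 CPM at week 2 (-0.47, adjusted p = 0.36). In this comparison 31.3% of the 12200 features tested passed the threshold and 43.8% had groups that did not overlap, and 2 of 7 opsins did so on either count. That share is close to the first background and below the second.

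In CCM-exposed flies 3 of 7 opsins passed the threshold between weeks, where 56.0% of all features did. Rh2 was higher at week 3, and Rh4 and, marginally, Rh7 were lower. Rh2 had 67.5, 52.9 and 70.8 CPM in CCM samples A, B and C of week 3, against 37.8, 29.9 and 38.9 CPM in CCM samples of week 2. The week 3 values all lay above the week 2 values. The mean was 63.7 ± 9.48 CPM at week 3 and 35.5 ± 4.88 CPM at week 2 (SD, n = 3 each), a log2 fold change of 0.79 (standard error 0.17, adjusted p = 0.0030, edgeR), and with each sample left out in turn the adjusted p stayed between 0.0055 and 0.014. Rh4 had 25.01, 80.7 and 16.4 CPM in CCM samples of week 3 and 101.0, 72.9 and 134.5 CPM in CCM samples of week 2. The high value of sample B of week 3 and the low value of sample B of week 2 made these groups overlap. Its log2 fold change was -1.37 (standard error 0.72, adjusted p = 0.074), and the call was lost in DESeq2 (adjusted p = 0.10) and when CCM sample A or C of either week was left out, with adjusted p of 0.11 to 0.20. Without CCM sample B of week 3 it was -2.31 (adjusted p = 0.0056).

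Rh7 had 1.87, 1.54 and 1.95 CPM in CCM samples of week 3 and 3.20, 2.20 and 2.27 CPM in CCM samples of week 2. These values rest on 33 to 38 and on 52 to 68 counts, and although the groups did not overlap, the call was marginal (log2 fold change -0.57, standard error 0.17, adjusted p = 0.096). DESeq2 gave an adjusted p of 0.16, and without any single sample it was 0.12 to 0.29. ninaE had 1380, 2281 and 941 CPM at week 3 and 2433, 1640 and 3000 CPM at week 2 in CCM flies, with overlap and a log2 fold change of -0.66 (standard error 0.45, adjusted p = 0.14, edgeR). DESeq2 placed ninaE under the threshold, with an adjusted p of 0.084. Rh3 had 113.8, 284.5 and 75.2 CPM at week 3 and 194.2, 125.5 and 227.7 CPM at week 2 (-0.25, adjusted p = 0.67). Rh5 had 37.8, 62.1 and 20.6 CPM at week 3 and 37.2, 21.6 and 45.7 CPM at week 2 (0.17, adjusted p = 0.74). Rh6 had 34.0, 59.3 and 28.2 CPM at week 3 and 56.2, 46.3 and 62.9 CPM at week 2 (-0.49, adjusted p = 0.17).

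The samples of the CCM groups varied more among themselves than those of the control groups for the opsins of the compound eye. In CCM flies of week 3 the highest sample exceeded the lowest 2.42-fold for ninaE, 3.78-fold for Rh3, 4.92-fold for Rh4, 3.02-fold for Rh5 and 2.11-fold for Rh6, against 1.31-fold, 1.19-fold, 1.501-fold, 1.38-fold and 1.31-fold in control flies of week 3. These 5 opsins of the compound eye were all highest in CCM sample B and lowest in CCM sample C of week 3. Rh2 and Rh7 had the opposite order there, lowest in sample B and highest in sample C, and spread only 1.34-fold and 1.27-fold. At week 2 all 7 opsins were lowest in sample B of the CCM flies and in sample C of the control flies. Without CCM sample B of week 3, 5 opsins passed the threshold between weeks in CCM flies, with log2 fold changes of 0.96 for Rh2, -2.31 for Rh4, -1.03 for ninaE (adjusted p = 0.027), -0.95 for Rh3 (adjusted p = 0.037) and -0.83 for Rh6 (adjusted p = 0.010). Rh7 no longer passed it (adjusted p = 0.29). Leaving out CCM sample C of week 3 instead left only Rh2 under the threshold (0.75, adjusted p = 0.012, edgeR). The log2 fold change was then -0.96 for Rh4, -0.37 for ninaE, 0.12 for Rh3 and -0.25 for Rh6, with adjusted p of 0.14 or more. Of all features, 56.0% passed the threshold with CCM sample B of week 3 and 52.6% without it. With it 62.6% had groups that did not overlap, while 3 of 7 opsins passed and 2 of 7, Rh2 and Rh7, did not overlap. Both of these opsin shares were below those of all features.

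**Figure D2:**
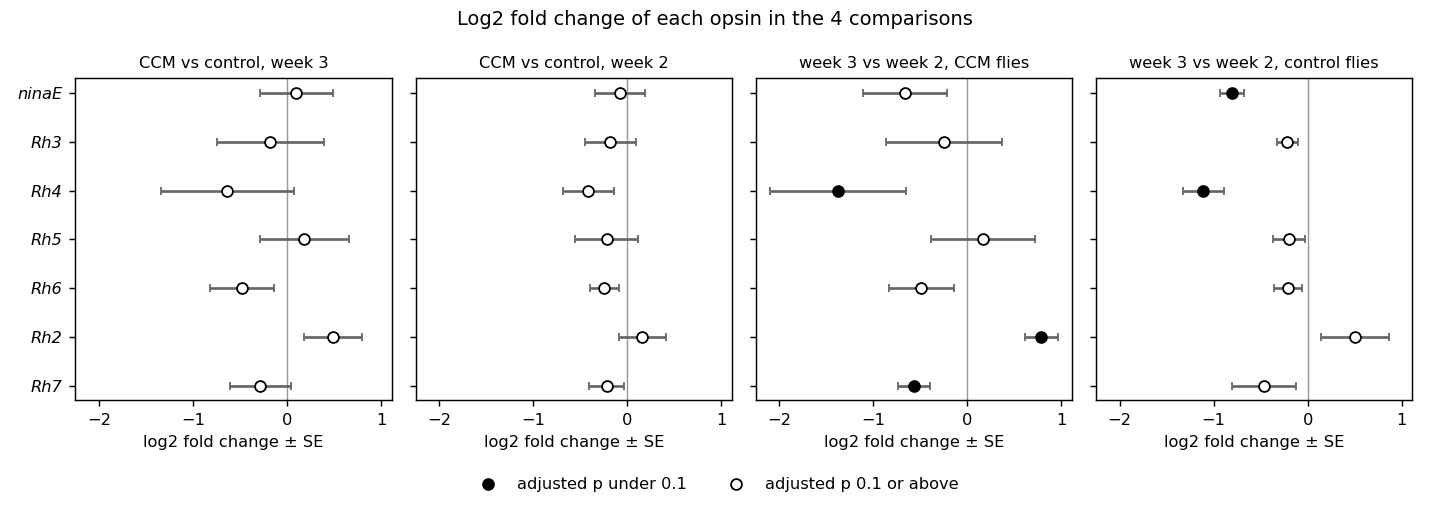
Log2 fold change of each opsin (horizontal axis, first-named group over second, bars ± standard error) in the 4 comparisons, with filled points for an adjusted p under 0.1. No opsin is filled in either comparison of CCM with control flies, 3 are filled between weeks in CCM flies and 2 in control flies, and Rh4 lies farthest left between weeks in both.

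The weeks also differed in a trend with gene length. Across genes, which are not independent replicates, the correlation of exonic length (log2) with how far a sample departed from the average was -0.54 to -0.11 in the samples of week 3 and 0.05 to 0.56 in those of week 2. With offsets that remove this trend, the log2 fold change between weeks in control flies was -1.25 for Rh4 (adjusted p = 0.015), -0.91 for ninaE (adjusted p = 0.022) and -0.35 for Rh3, which then passed the threshold (adjusted p = 0.087). In CCM flies it was 0.63 for Rh2 (adjusted p = 0.0087), -1.53 for Rh4 (adjusted p = 0.065) and -0.64 for Rh6, which then passed (adjusted p = 0.099). The log2 fold change of Rh7, the one opsin with a long mRNA, moved to -0.10 in CCM flies (adjusted p = 0.78). The calls of Rh2, Rh4 and ninaE named above remained with the offsets, and that of Rh7 did not.

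The next question was whether CCM changed opsin mRNA relative to the control schedule. At week 3, 0 of 7 opsins passed the threshold in edgeR and 0 had an unadjusted p under 0.05 there. In DESeq2 0 passed, and Rh7 was given no adjusted p. Among all 12208 features 2 passed in edgeR (0.0164%) and 1462 had an unadjusted p under 0.05. DESeq2 called 353 of the 10060 features to which it gave an adjusted p. Rh2 had the smallest p of the opsins. It had 67.5, 52.9 and 70.8 CPM in CCM samples and 43.4, 30.9 and 61.1 CPM in control samples of week 3, and within each letter the CCM sample was the higher (log2 fold change 0.49, standard error 0.31, adjusted p = 0.45). Rh6 had 34.0, 59.3 and 28.2 CPM in CCM samples and 52.5, 66.6 and 50.8 CPM in control samples, lower in the CCM sample of each letter (-0.48, standard error 0.34, adjusted p = 0.55). Rh4 had 25.01, 80.7 and 16.4 CPM in CCM samples and 54.7, 81.6 and 54.4 CPM in control samples, also lower in each letter (-0.63, standard error 0.70, adjusted p = 0.71). The log2 fold change was 0.10 for ninaE, -0.17 for Rh3, 0.19 for Rh5 and -0.28 for Rh7, with adjusted p of 0.84 or more. The groups overlapped for all 7 opsins, whereas they did not for 17.5% of all features.

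Samples of the same letter tended to deviate together at week 3, although the labels do not say what the letters mark. This held less for letter A, where CCM sample A correlated at 0.18 with control sample A and at 0.22 with control sample B. A fit with the letter as a replicate block is given beside the fit without it, a choice that rests on these same data. With the block Rh2 rose (log2 fold change 0.53, adjusted p = 0.049) and Rh6 fell (-0.54, adjusted p = 0.059) in CCM flies of week 3 relative to control flies. Rh4 remained just above the threshold (-0.92, adjusted p = 0.10). The log2 fold change with the block was -0.41 for Rh3 (adjusted p = 0.42), -0.21 for Rh7 (adjusted p = 0.73), 0.08 for Rh5 (adjusted p = 0.92) and 0.01 for ninaE (adjusted p = 0.98). The block raised the number of calls among all features to 1140, or 9.34%. With length offsets as well as the block the adjusted p was 0.073 for Rh2 and 0.063 for Rh6. Without CCM sample B of week 3 and without the block, 0 of 7 opsins passed, with log2 fold changes of -1.62 for Rh4, -0.92 for Rh3 and -0.87 for Rh6 and the same adjusted p of 0.38 for all 3. Their unadjusted p was 0.00052, 0.0025 and 0.0013 (edgeR), and that of Rh2 was 0.041 (log2 fold change 0.62, adjusted p = 0.50). For ninaE, Rh5 and Rh7 it was 0.19, 0.34 and 0.70. In that fit 1162 of 12202 features had an unadjusted p under 0.05 and 0 passed. Leaving out CCM sample C of week 3 instead gave log2 fold changes of -0.28 for Rh4, 0.14 for Rh3 and -0.29 for Rh6. For Rh2, ninaE, Rh5 and Rh7 they were 0.41, 0.34, 0.48 and -0.35, and the adjusted p of all 7 was 0.49 or more (edgeR).

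At week 2, 0 of 7 opsins passed the threshold between CCM and control flies in edgeR, 0 had an unadjusted p under 0.05 and 0 passed in DESeq2. Of 12356 features 0 passed (0.0%), with 700 at an unadjusted p under 0.05, and DESeq2 called 7 of 14273. Rh4 had the largest log2 fold change of the opsins, with 101.0, 72.9 and 134.5 CPM in CCM samples and 143.4, 150.0 and 118.2 CPM in control samples (-0.41, standard error 0.27, adjusted p = 0.71). The other 6 opsins had log2 fold changes from -0.24 to 0.16, and the groups of all 7 overlapped, against 13.4% of all features whose groups did not. The schedule by week interaction, fitted on all 12 samples, passed for 0 of 7 opsins in edgeR and in DESeq2, with 0 at an unadjusted p under 0.05 and a smallest adjusted p of 0.93. Among all 12530 features 0 passed (0.0%), 570 had an unadjusted p under 0.05 and DESeq2 called 1. Without CCM sample B of week 3 the interaction was -1.20 for Rh4, -0.73 for Rh3 and -0.61 for Rh6. Their unadjusted p was 0.0081, 0.043 and 0.021 (edgeR), with an adjusted p of 0.99 for each. The other opsins had an unadjusted p of 0.23 or more. In that fit 354 of 12623 features had an unadjusted p under 0.05 and 0 passed. After adjustment a difference between the week 3 and week 2 effects of CCM on opsins was therefore not detectable with 3 samples per group. The same holds for the difference between the aging of CCM and control flies. The 4 comparisons share their samples in pairs, so that a high or low CCM sample of week 3 enters both its comparison with control flies and that with week 2.

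Ratios between opsins in the same library do not depend on how libraries are scaled, and 7 of them were compared. Most share ninaE as their denominator and others share a gene with these, so the ratios are not independent of each other. Since Rh3 and Rh4 are both opsins of R7 cells, the ratio of Rh3 to Rh4 counts was of first interest. Rh3 counts were 455, 352 and 459% of Rh4 counts in CCM samples A, B and C of week 3, and 322, 240 and 302% in control samples of week 3. At week 2 they were 192, 172 and 169% in CCM samples, and 162, 133 and 161% in control samples. The 4 groups did not overlap at all on this ratio, and in both weeks each CCM sample lay above each control sample. Between weeks the mean log2 ratio differed by 1.08 (standard error 0.16), a 2.11-fold higher ratio in the 6 samples of week 3 than in the 6 of week 2 (exact permutation test, two-sided, p = 0.0022, the smallest that 6 samples against 6 allow). Adjusted over the 14 tests on 12 samples, for 7 ratios and 2 contrasts, p was 0.010. With any single sample left out the difference was 0.996 to 1.18.

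CCM flies and control flies differed in the Rh3 to Rh4 ratio by 0.55 on the log2 scale at week 3 (standard error 0.18) and by 0.23 at week 2 (standard error 0.11). Each is an exact permutation test with p = 0.1, the smallest that 3 samples against 3 allow, so neither can reach 0.05. Over both weeks together the difference was 0.39 (exact permutation test, p = 0.29, and p = 0.33 adjusted over the 14 tests). That test ignores the week, and with permutation within each week, added after seeing the data, the same difference had p = 0.005, the smallest this allows, so the call depends on it. CCM sample B of week 3, which stood apart in its opsin levels, had a log2 ratio of 1.82, against 2.18 and 2.20 in CCM samples A and C, so that without it the difference between CCM and control flies of week 3 was 0.68 and that between weeks over the remaining samples 1.07.

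The ratio of Rh4 to ninaE, the yellow R7 opsin against the opsin of R1 to R6, moved the other way. Rh4 is its numerator and the denominator of Rh3 to Rh4, so a change in Rh4 alone moves these ratios in opposite directions. Rh4 counts were 1.81, 3.54 and 1.74% of ninaE counts in CCM samples of week 3, 3.88, 4.98 and 4.36% in control samples of week 3, 4.15, 4.44 and 4.48% in CCM samples of week 2 and 5.35, 5.98 and 5.14% in control samples of week 2. Within each week the CCM samples all lay below the control samples, by 0.97 on the log2 scale at week 3 and by 0.33 at week 2 (exact permutation tests, p = 0.1 each). Over 6 CCM and 6 control samples the log2 difference was -0.65 (standard error 0.28, exact permutation test, p = 0.022, adjusted p = 0.061), and over 6 samples of week 3 and 6 of week 2 it was -0.64 (standard error 0.28, p = 0.026, adjusted p = 0.061). Neither passed 0.05 after adjustment over the 14 tests. With permutation within each week, added after seeing the data, the difference between CCM and control flies had p = 0.005, not adjusted. Permutation within each schedule gave the difference between weeks p = 0.005 as well, the smallest such a test allows. Without CCM sample B of week 3 the CCM samples of that week had 1.81 and 1.74%, both below the lowest control value of 3.88%, and the log2 difference between CCM and control flies was -1.30 at week 3 and -0.69 over both weeks (exact permutation test, p = 0.028, not adjusted).

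Relative to ninaE, Rh5 and Rh2 were higher at week 3 than at week 2. Rh5 counts were 2.74, 2.72 and 2.19% of ninaE counts in CCM samples of week 3, 2.46, 1.84 and 3.33% in control samples of week 3, 1.53, 1.31 and 1.52% in CCM samples of week 2 and 1.69, 1.65 and 1.53% in control samples of week 2. All 6 week 3 samples lay above all 6 week 2 samples (log2 difference 0.71, standard error 0.13, exact permutation test, p = 0.0022, adjusted p = 0.010). Rh2 counts were 4.89, 2.32 and 7.52% of ninaE counts in CCM samples of week 3, 3.08, 1.88 and 4.90% in control samples of week 3, 1.55, 1.83 and 1.30% in CCM samples of week 2 and 1.39, 1.42 and 0.988% in control samples of week 2. Here too the weeks did not overlap (log2 difference 1.40, standard error 0.33, exact permutation test, p = 0.0022, adjusted p = 0.010). For Rh3 to ninaE the difference between weeks was 0.44 (exact permutation test, p = 0.022, adjusted p = 0.061), and for Rh6 to ninaE it was 0.38 (p = 0.041, adjusted p = 0.082). These differences between weeks were, with CCM sample B of week 3 left out, 0.68 for Rh5, 1.53 for Rh2, 0.40 for Rh3 and 0.44 for Rh6, each relative to ninaE.

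Rh6 counts were 2.47, 2.60 and 2.99% of ninaE counts in CCM samples of week 3 and 3.73, 4.06 and 4.07% in control samples of week 3, without overlap (log2 difference -0.56, standard error 0.093, exact permutation test, p = 0.1), and it was -0.54 with CCM sample B left out. At week 2 they were 2.31, 2.83 and 2.10% in CCM samples and 2.63, 2.70 and 2.53% in control samples, with overlap. The ratio of Rh5 to Rh6, the opsins of pale and yellow R8 cells, was 111, 105 and 73.1% in CCM samples of week 3, 65.9, 45.4 and 81.9% in control samples of week 3, 66.1, 46.5 and 72.6% in CCM samples of week 2 and 64.3, 61.0 and 60.3% in control samples of week 2. Its log2 difference between weeks was 0.33 (exact permutation test, p = 0.15, adjusted p = 0.21), and 0.24 without CCM sample B of week 3. Unlike the R7 pair, the R8 pair overlapped between weeks over the 12 samples and between schedules in either week, although in CCM flies alone each week 3 value was above each week 2 value (exact permutation test, p = 0.1).

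**Figure D3:**
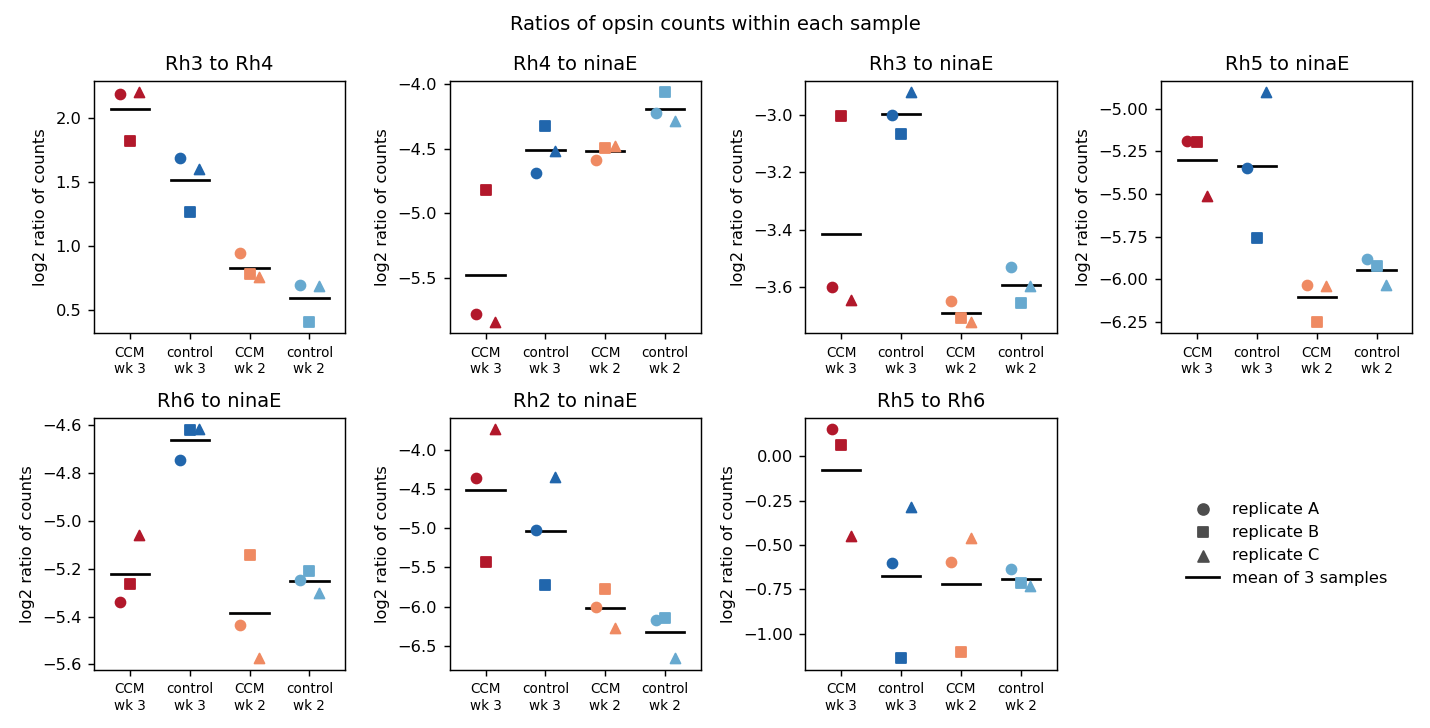
Log2 ratio of the counts of 2 opsins in the same sample (vertical axes, each panel on its own scale), by group, with replicate letters as symbols and bars at the mean of 3 samples. The Rh3 to Rh4 ratio falls into 4 groups that do not overlap, highest in CCM flies of week 3 (1.82 to 2.20) and lowest in control flies of week 2 (0.41 to 0.69).

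**Figure D4:**
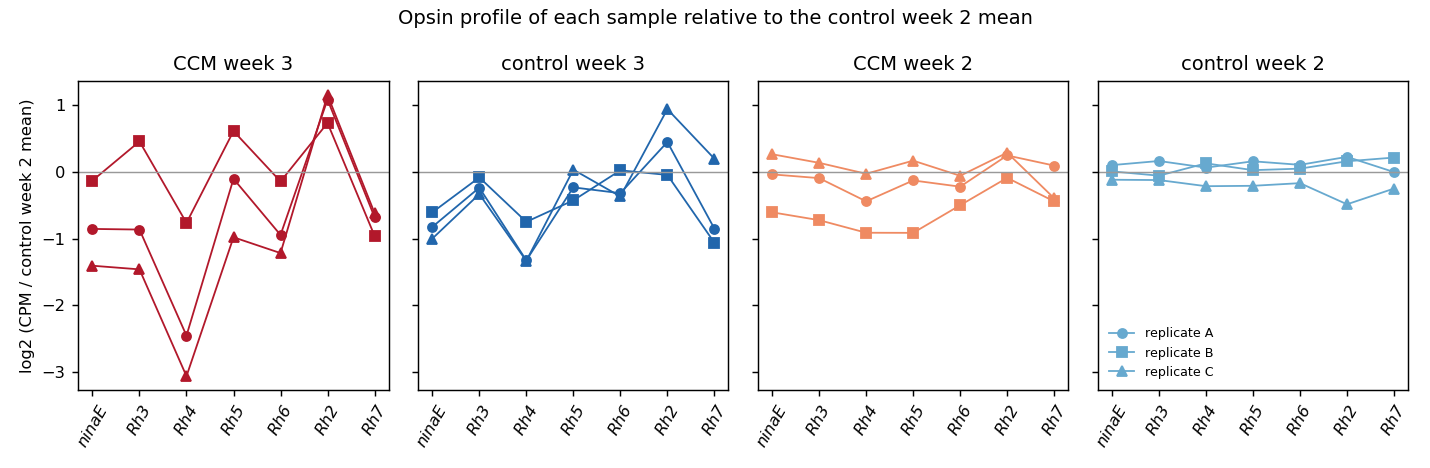
Log2 of each opsin's CPM over its mean in control flies of week 2 (vertical axis), with 1 line per sample and 1 panel per group. In both CCM groups the samples are shifted against each other as a whole across ninaE, Rh3, Rh4, Rh5 and Rh6, most at week 3. In control flies of week 3 Rh5 is lowest in sample B and highest in sample C, the opposite of the other 4 of these opsins. In all 3 samples of CCM flies of week 3 Rh4 lies below the other 4 of these opsins and Rh2 is the highest of the 7.

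Across the 12 samples ninaE, Rh3, Rh4 and Rh6 varied together, and Rh5 less closely with most of them. Pearson's r of log2 CPM was 0.94 between Rh4 and Rh6, which share the yellow pairing, 0.81 between Rh3 and Rh5, which share the pale pairing, 0.92 between Rh3 and Rh6 and 0.91 between ninaE and Rh4. For Rh5 it was 0.62 with ninaE, 0.58 with Rh6 and 0.50 with Rh4. Rh2 had r of -0.75 with Rh4, -0.66 with Rh6, -0.59 with ninaE and -0.45 with Rh3, but 0.07 with Rh5. For Rh7 the highest r with another opsin was 0.41. Over the 11 samples other than CCM sample B of week 3, r was 0.95 between Rh4 and Rh6, 0.76 between Rh3 and Rh5, -0.61 between Rh2 and Rh3 and -0.06 between Rh2 and Rh5, and the highest r of Rh7 was 0.48, with Rh5. These are descriptions over 12 samples that share libraries and the difference between weeks.

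The genes whose pattern was most like that of ninaE, by Pearson's r of log2 CPM over the 12 samples, were Arr2 (0.99) and Arr1 (0.98), the arrestins that bind activated rhodopsin, trp (0.98), a light-activated channel, inaD (0.98), the scaffold of the signalling complex, and inaC (0.97), the eye protein kinase C. Rh4 was most like prom (0.95), a prominin of the rhabdomere stalk, Rh6 (0.94) and Arr1 (0.94). Rh3 was most like Rh6 (0.92), Gbeta76C (0.89), the eye G protein beta subunit, and t (0.87), the tan hydrolase that recycles histamine. Rh6 was most like Rh4 (0.94), Rh3 (0.92) and Osi24 (0.91). Rh5 was most like the merged feature of CG15824 and ninaA (0.95), ninaA being a chaperone of Rh1, followed by Pph13 (0.90), a photoreceptor transcription factor, and Culd (0.90). Rh2 was most like CG44242, CG43185 and CG5377 (0.97 each), and Rh7 was most like CG16772 (0.83), the merged feature of CG17078 and smo (0.82) and CG4408 (0.82). Over the same 11 samples the r of the genes named here was 0.97 or more for ninaE and Rh2, and 0.78 or more for the other opsins.

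Most genes of the phototransduction cascade were lower at week 3 than at week 2. List counts between weeks stand against the shares of all features, of which 29.6% fell and 26.4% rose in CCM flies, and 17.3% fell and 14.0% rose in control flies. In CCM flies without sample B of week 3, 26.4% fell and 26.2% rose. In control flies 14 of 19 tested cascade genes fell and 1 rose (median log2 fold change -0.61, against -0.03 over all features), where 31.3% of all features passed in either direction. The smallest p belonged to ninaC, a myosin III of the rhabdomere, with 81.3 CPM at week 3 and 220.6 CPM at week 2 (log2 fold change -1.44, adjusted p = 0.016), followed by inaD (-0.93), trp (-0.79) and Arr1 (-0.92), each with an adjusted p of 0.027. The gene that rose, named after its value was seen, was laza (0.38, adjusted p = 0.065), which encodes a lipid phosphate phosphatase. In CCM flies 12 of 19 fell and 1, again laza (0.34, adjusted p = 0.059), rose (median -0.69, against -0.03), where 56.0% of all features passed in either direction. When CCM sample B of week 3 was left out, 17 fell and 1 rose (median -0.96). norpA, the phospholipase C of the cascade, had 20.4 CPM at week 3 and 100.6 CPM at week 2 (-2.36, adjusted p = 0.0012), Galphaq, its activating G protein subunit, 14.7 and 36.3 CPM (-1.36, adjusted p = 0.0022), and rdgA, a diacylglycerol kinase, 20.1 and 66.1 CPM (-1.78, adjusted p = 0.0025). Between CCM and control flies 0 of 19 passed in either week (edgeR).

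Of 7 genes of photoreceptor structure and transmitter tested, 4 fell and 0 rose between weeks in CCM flies (median -0.95, and 5 fell without CCM sample B), a share of calls near the 56.0% of all features. In control flies 4 fell and 0 rose (median -0.52), where 31.3% of all features passed. t, Hdc and CarT did not pass in either. chp (chaoptin), an adhesion protein of the rhabdomere, had 24.5 CPM at week 3 and 107.4 CPM at week 2 in CCM flies (-2.17, adjusted p = 0.0044), and 27.7 and 94.9 CPM in control flies (-1.78, adjusted p = 0.0099). Cpn, a calcium-binding photoreceptor protein, fell by 1.74 on the log2 scale in CCM flies (adjusted p = 0.0015) and by 1.89 in control flies (adjusted p = 0.027). eys, a protein of the space between rhabdomeres, fell by 1.46 in CCM flies (adjusted p = 0.0018) and by 0.99 in control flies (adjusted p = 0.027). Few genes of opsin maturation and chromophore supply passed the threshold. Of 10 tested, 0 fell and 1 rose in CCM flies, the retinoid-binding protein gene pinta (0.23, adjusted p = 0.048), and 1 fell and 0 rose in control flies, ninaD (-0.86, adjusted p = 0.035), a scavenger receptor for carotenoid uptake. Their median was 0.08 in CCM flies and 0.05 in control flies, and without CCM sample B of week 3, 0 fell and 3 rose (median 0.0024).

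Of 12 regulators of opsin transcription tested, 6 fell and 1 rose in CCM flies (median -0.46, and 4 fell and 1 rose without CCM sample B), and 2 fell and 0 rose in control flies (median -0.18). These shares of calls were near the 56.0% of all features in CCM flies and below the 31.3% in control flies. wts, the warts kinase that favours Rh6 in R8, had 30.4 CPM at week 3 and 59.95 CPM at week 2 in CCM flies (-1.04, adjusted p = 0.0010), and 36.6 and 61.5 CPM in control flies (-0.75, adjusted p = 0.048). melt (melted), which favours Rh5 in R8, fell by 0.67 in CCM flies (adjusted p = 0.012) and by 0.50 in control flies (adjusted p = 0.0805). pros, a repressor of R8 opsins in R7, fell by 1.37 in CCM flies (adjusted p = 0.0016), and oc (orthodenticle), which acts on Rh3 and Rh5, by 1.18 (adjusted p = 0.017). Several of these genes also act outside the eye. Among lens and pigment cell genes 1 of 7 fell and 2 rose in CCM flies, and 2 fell and 2 rose in control flies, against 56.0% and 31.3% of all features called. The counts in CCM flies were again 1 and 2 without CCM sample B. Cpr72Ec, a cuticle protein of the lens, fell by 1.61 in CCM flies and by 1.47 in control flies, while the pigment transporter genes bw and st rose by 0.66 and 0.35 in CCM flies and by 0.47 and 0.55 in control flies. In the CCM with control comparisons no gene of these lists passed in either week, nor at week 3 without CCM sample B.

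**Figure D5:**
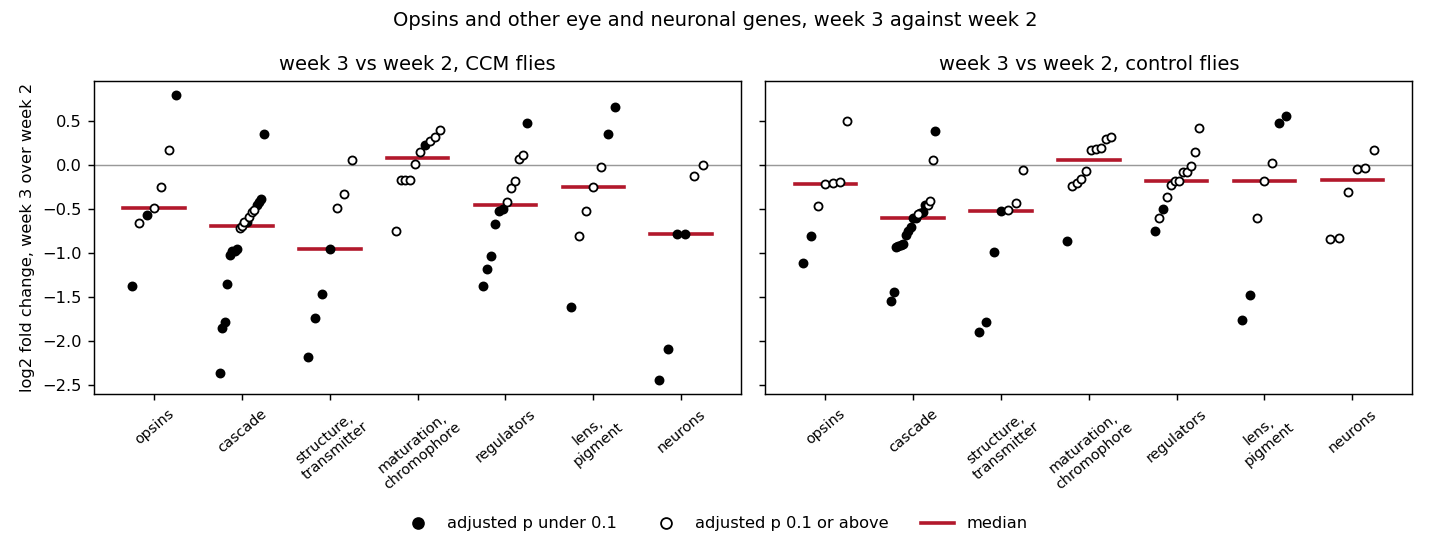
Log2 fold change between weeks (vertical axis, week 3 over week 2) of the opsins and of the genes of 6 lists, in CCM flies at the left and control flies at the right, with filled points for an adjusted p under 0.1 and a bar at each list's median. The medians of the cascade and structure lists lie below 0 and that of the maturation and chromophore list near 0, with single genes of each away from it, and the opsins spread to both sides.

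Markers of other cell types also moved between weeks, and their part in the opsin results was not tested. Their counts too stand against 56.0% of all features called in CCM flies and 31.3% in control flies. Of 6 general neuronal genes 4 fell in CCM flies (median -0.78), among them Syt1 (-2.09) and brp (-2.44), and 0 passed in control flies (median -0.18). Their summed level was 135 to 149 CPM in CCM samples of week 3, 148 to 207 CPM in control samples of week 3, 192 to 292 CPM in CCM samples of week 2 and 166 to 254 CPM in control samples of week 2. Of 5 glial genes 1 fell and 1 rose in CCM flies and 0 fell and 1, repo, rose in control flies. Of 4 fat body and yolk genes tested all 4 fell in both schedules, Yp1 by 1.59 in CCM flies and by 1.20 in control flies. Of 4 ovary and germline genes 3 fell and 1 rose in CCM flies and 2 fell and 1 rose in control flies. Of 5 testis genes 4 fell in CCM flies and 2 in control flies. Accessory gland genes gave 1 lower and 1 higher of 5 in CCM flies and 0 lower and 2 higher in control flies, and muscle genes 1 lower and 2 higher of 4 in each, with Act88F higher by 1.70 in CCM flies and 1.44 in control flies. No gene of the 12 lists was at 0 in all samples of a group, and without CCM sample B of week 3 the counts of these marker lists in CCM flies changed only for glia (0 fell and 1 rose) and testis (2 fell). The opsin ratios given above compare opsins of different photoreceptor types within a library. Whether the numbers of these cells changed was not tested.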

How the data were processed

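RNA of 12 whole-fly samples was sequenced by the authors, who aligned reads to dm6 with STAR, filtered the BDGP6 annotation to coding genes and counted with MMquant. The authors deposited counts that had not been normalized, with a feature for each gene or group of merged genes. Strandedness is not given in the sources used here. Each pair of groups, and all 12 samples for the interaction, was fitted in R 4.3.3 with edgeR 4.0.16 (filterByExpr, TMM, quasi-likelihood test, Benjamini-Hochberg over all features, threshold 0.1). Standard errors come from log2 CPM with a pseudocount of 0.5, and ratios from counts plus 0.5, tested by exact permutation over samples. The fits were tested on simulated data. Python 3.11.15, pandas 2.3.3, numpy 2.4.6 and matplotlib 3.10.9 served for tables and plots. Positions and exonic lengths came from a later BDGP6 annotation, which matched 13025 of 13240 single-gene features.

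Nothing says that samples came from separate cultures, so p-values measure the spread between these samples. No label states a pairing, and the replicate block matched samples by letter alone. At week 3 the deviations of same-lettered samples from their group means correlated at 0.18, 0.49 and 0.47 for letters A, B and C. For letter A the match was not borne out, since CCM sample A correlated at 0.22 with control sample B. In each other comparison at least 1 same-letter correlation was at 0.1 or below. Named genes were the 7 opsins, up to 4 genes per list with the smallest p in each comparison, the 5 genes most like ninaE and the 3 most like each other opsin. The members and lists were chosen with earlier results of these data known. Of 98 listed genes 89 were matched as single features. Alternatives were DESeq2 1.42.0, RLE factors, no filter, the replicate block, length offsets (lowess, span 0.3) with and without the block, a threshold of 0.05, all samples in a single fit and each sample left out.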

Additional observations from a re-analysis of the deposited data

How the results depend on the processing

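With a threshold of 0.05 on the adjusted p, 1 opsin rather than 3 passed between weeks in CCM flies. With each sample left out in turn this count was 1 to 5, with 5 only without CCM replicate B of week 3 and 1 without CCM replicate A or C of either week. In control flies it was 2 in each such fit, and for CCM against control flies and for the interaction it was 0. The replicate block, alone or with length offsets, gave 2 opsins rather than 0 at week 3. At week 2, in control flies between weeks and for the interaction the block changed no opsin call. Between weeks in CCM flies it lost that of Rh7 (adjusted p = 0.19), and in none of these comparisons did samples of every letter deviate together.

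No opsin that passed the threshold changed sign. Of those that did not pass, length offsets with the replicate block gave log2 fold changes of -0.036 for ninaE between CCM and control flies at week 3 and -0.034 for Rh5 between weeks in CCM flies. The interaction of Rh3 was -0.026 in DESeq2 and -0.026 with RLE factors, -0.0011 without a filter, -0.11 with the replicate block, -0.045 with length offsets and -0.15 with both. That of Rh7 was 0.064 with length offsets and 0.097 with both. Leaving out 1 sample at a time gave, for CCM against control flies of week 3, -0.30 to 0.34 for ninaE, -0.92 to 0.14 for Rh3, -0.27 to 0.48 for Rh5 and -0.51 to 0.19 for Rh7. At week 2 it gave -0.29 to 0.10 for ninaE, -0.054 to 0.30 for Rh2, -0.37 to 0.0045 for Rh3 and -0.46 to 0.0072 for Rh5. Between weeks in CCM flies it gave -0.95 to 0.12 for Rh3 and -0.26 to 0.52 for Rh5. For the interaction it gave -0.22 to 0.43 for ninaE, -0.73 to 0.33 for Rh3, -1.20 to 0.14 for Rh4, -0.054 to 0.71 for Rh5 and -0.28 to 0.43 for Rh7.

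For ratios over 12 samples, leaving out 1 sample gave log2 differences between weeks of -0.77 to -0.47 for Rh4 to ninaE (p up to 0.080, exact permutation test), 0.31 to 0.46 for Rh6 to ninaE and 0.22 to 0.48 for Rh5 to Rh6. Between CCM and control flies it gave -0.75 to -0.48 for Rh4 to ninaE, -0.42 to -0.28 for Rh6 to ninaE and -0.16 to 0.086 for Rh5 to ninaE. Permutation within a week, chosen after seeing the data, left the differences between CCM and control flies at 0.39 for Rh3 to Rh4 (p = 0.005, the smallest it allows), -0.26 for Rh3 to ninaE (p = 0.035) and -0.35 for Rh6 to ninaE (p = 0.02). The causes of these changes were not tested. Merged features that include an opsin, an intended alternative, gave no value because none did. Precision was set by the spread between samples, not by depth, except for Rh7 with 27 to 72 counts.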
